A study of Mus musculus with 38 samples.

Results

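In cultured mouse cortical neurons, 3387 distal regulatory sites lay outside every listed peak of histone H3 lysine 27 acetylation (H3K27ac), in silenced and in depolarised neurons alike, and belonged to none of the study's 4 acetylation classes. They were 28.6% of the 11830 distal sites marked by the coactivator CBP and by H3K4me1 that the study took from earlier work. Of those 11830 sites, 4892 were in a class (increasing, constant, decreasing or no H3K27ac) and 6938 were in none. The unclassified sites split into the 3387 described here (48.8%), 2774 in H3K27ac peaks of both conditions (40.0%), 414 in a peak after KCl only (5.97%) and 363 in a peak of silenced neurons only (5.23%). The sites were thus chosen by their place outside H3K27ac peaks and outside the classes, and their lack of H3K27ac is not a result. The rule names no c-Fos, FosB or JunB list. Some lay close to a peak (27 within 100 bp), and a site outside the listed peaks is not thereby free of the mark. The labels do not say how the 4 classes were assigned.

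The neurons were dissociated from embryonic day 16.5 cortices of C57BL/6 mice and used on day 7 in vitro. All cultures were first silenced overnight with 1 μM tetrodotoxin (TTX), which blocks sodium channels, and 100 μM DL-AP5, which blocks NMDA receptors. Unstimulated cultures stayed silenced, and KCl cultures were depolarised for 2 h. H3K27ac was profiled in biological samples 1 and 2, of which the 2 merged peak lists used here were made, one for each condition. The transcription factors were profiled in biological samples 3 to 6, so acetylation and factor binding come from different cultures. Samples 3 and 4 carried no shRNA. Their libraries covered c-Fos with the antibodies sc52 and sc7202 and FosB with sc48, unstimulated and after KCl, and JunB with sc46 in sample 4. Cultures of samples 5 and 6 were infected with control, c-Fos or FosB shRNA, and their factor libraries were made only after KCl. No list here measures a marker of cell type, so the labelled cell type was not checked. The same holds for CBP and H3K4me1 at these sites.

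c-Fos, FosB and JunB are members of AP-1, a factor made of a pair of proteins that binds DNA as Fos-Jun or Jun-Jun dimers. Their genes are early-response genes of depolarised neurons, and c-Fos is scarce in silent cells. CBP is an acetyltransferase for H3K27, and H3K4me1 marks enhancers whether or not they are active. Acetylation of H3K27 is the mark commonly used to tell active enhancers from those that are only marked, often called poised.

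The unit of measurement below is the share of sites that lay inside a listed peak of one library. The lists held from 557 to 28885 peaks, from 557 to 4229 in the 7 unstimulated lists, and from 6808 to 28885 in the 6 c-Fos lists made after KCl without c-Fos shRNA. They hold no read counts, so sequencing depth is unknown and a longer list may reflect a deeper library. Each share was set beside the same share over all 11830 distal sites, called the background here. Wilson intervals on shares cover counting error only.

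c-Fos was listed at few of the unclassified sites outside H3K27ac peaks in silenced neurons and at about 1 in 3 of them after KCl. With sc52, 74 of the 3387 sites (2.18%) in unstimulated sample 3 and 31 (0.915%) in sample 4 lay in a c-Fos peak. With sc7202 there were 6 sites (0.177%) and 1 site (0.0295%). The backgrounds of these lists were 2.09%, 0.930%, 0.380% and 0.0254%. After KCl, sc52 listed 1232 sites (36.4%) in sample 3 and 486 (14.3%) in sample 4, and sc7202 listed 1682 (49.7%) and 1149 (33.9%). The KCl backgrounds were 35.7%, 14.4%, 47.9% and 33%. The share at these sites was thus near that over all distal sites in every KCl list, and no test set the rise here against that at other sites.

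The mean share rose from 0.827% ± 0.985 (SD, n = 4 libraries) to 33.6% ± 14.6 (SD, n = 4), a difference of 32.75 percentage points. The lowest KCl library lay above the highest unstimulated one. The exact two-sided permutation test over libraries gave p = 0.0286, the smallest value this design can give. These libraries come from 2 biological samples, each profiled with both antibodies, so they are not all independent. With each KCl library paired to its own sample and antibody the exact p was 0.125, the smallest for 4 pairs. With the mean of each biological sample as the unit, the same difference had an exact permutation p of 0.5, the smallest for 2 pairs. When every list was cut to its best 557 peaks, the difference was 1.09 points with no overlap between the groups (exact permutation p = 0.0286), and with peaks scoring at least 100 it was 18.3 points. Either antibody alone left 2 libraries against 2, with differences of 23.8 points for sc52 and 41.7 points for sc7202 (exact permutation p = 0.333 for each).

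**Figure D1:**
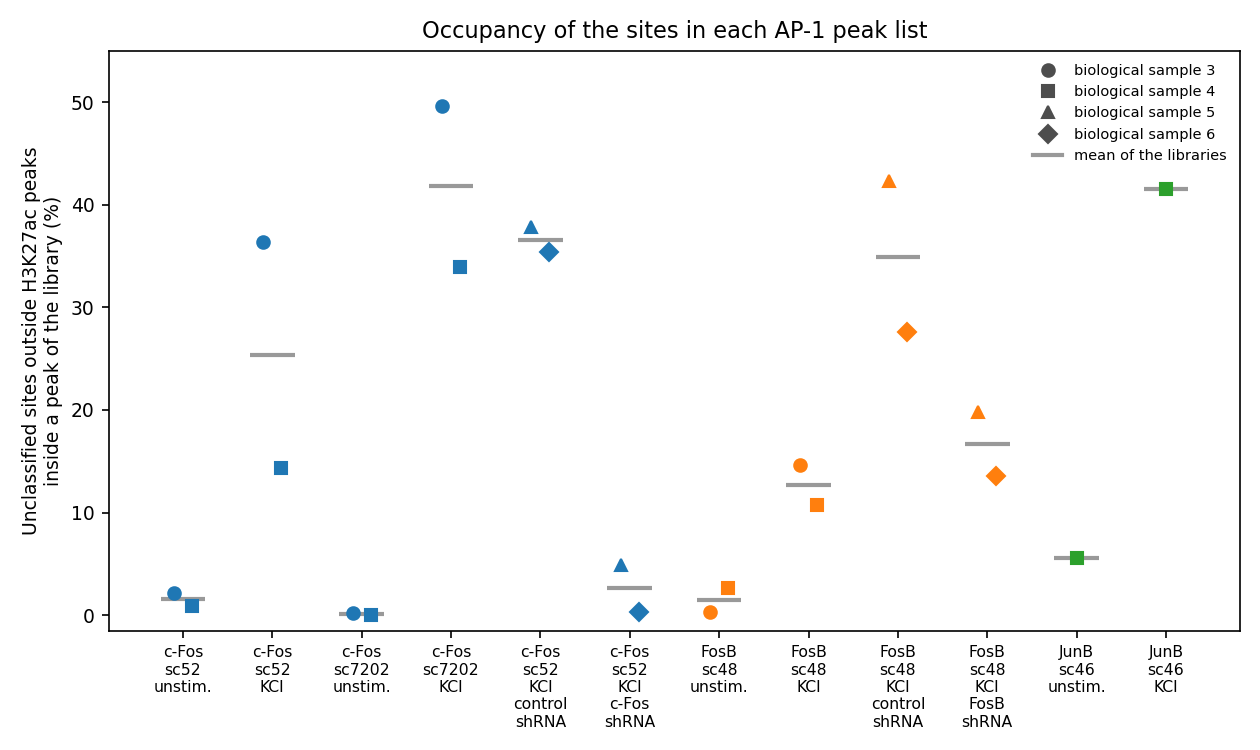
Percent of the 3387 unclassified sites outside H3K27ac peaks that lay inside a peak of each library (vertical axis), by factor, antibody and treatment; each symbol is 1 library, its shape gives the biological sample, and grey lines are group means. The 4 unstimulated c-Fos libraries sit at or below 2.18%, and the KCl c-Fos libraries without c-Fos shRNA between 14.3% and 49.7%.

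The sc52 sites were largely contained in the sc7202 sites, but not the reverse. Of the sites that sc52 listed after KCl, sc7202 listed 93.6% in sample 3 and 92.0% in sample 4, against 92.8% and 91.2% over all distal sites. In the other direction, sc52 held 68.5% and 38.9% of the sites that sc7202 listed, against 69.0% and 39.8% over all distal sites. In sample 4, 447 sites were in both lists, of 486 with sc52 and 1149 with sc7202.

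The 6 KCl c-Fos lists without c-Fos shRNA divided the sites into a large empty group and a broad remainder, much as they divided all distal sites. No list held 1423 sites (42.0%, against 43.4% of all distal sites). At least 1 list held 1964 (58.0%, background 56.6%), and all 6 lists held 373 (11.01%, background 11%). In between, 403 sites were in 1 list, 263 in 2, 255 in 3, 254 in 4 and 416 in 5. For comparison, all 6 lists held 9.97% of the class with no H3K27ac and 22.8% of the increasing class.

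**Figure D2:**
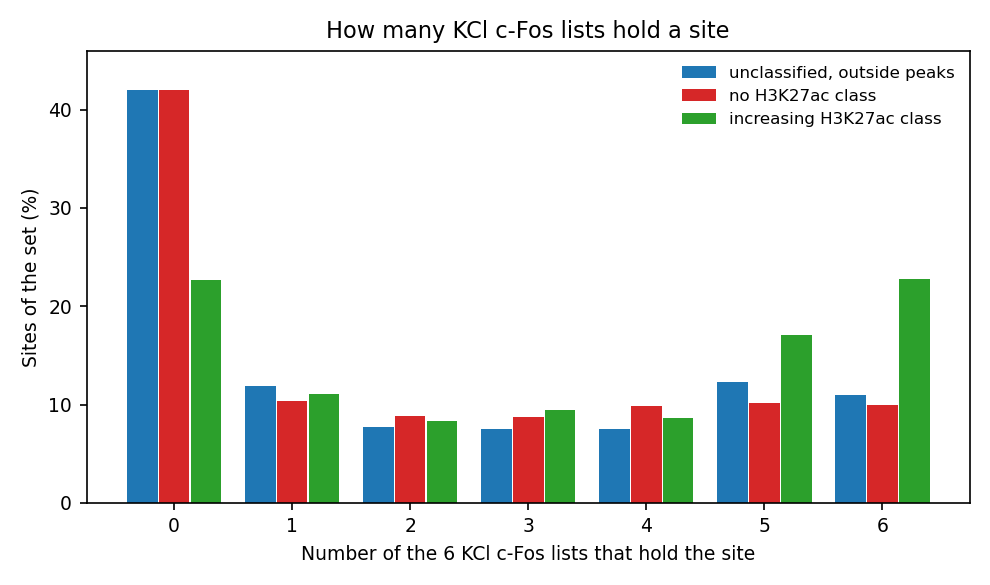
Percent of sites in each set (vertical axis) held by 0 to 6 of the KCl c-Fos lists (horizontal axis), for the unclassified sites outside H3K27ac peaks, the class with no H3K27ac and the class with increasing H3K27ac. The first 2 sets have 11.01% and 9.97% of their sites in all 6 lists, against 22.8% of the increasing class.

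The sites with c-Fos in all 6 lists included some of the strongest c-Fos peaks in the data. The position mm9 chr7:130209595 lay in a peak of all 11 KCl lists made without shRNA against the factor profiled (6 of c-Fos, 4 of FosB and 1 of JunB). Its KCl c-Fos peaks ranked from the 97.0th to the 99.8th percentile by the authors' score within their lists, and the nearest H3K27ac peak was 2285 bp away. In unstimulated neurons the same position was listed with sc52 in sample 3 (48.0th percentile) and for JunB in sample 4 (70.2nd percentile). A site at chr2:51721800, with its nearest H3K27ac peak at 33423 bp, was also in all 11 KCl lists, with c-Fos peaks from the 94.8th to the 99.6th percentile. Of the unstimulated lists, that of sc52 in sample 3 held it. The site at chr9:68195405 was in all 6 KCl c-Fos lists although no H3K27ac peak lay within 305063 bp. Another, at chr1:164703940, was in all 6 lists and in no unstimulated list, 23371 bp from H3K27ac. The site at chr14:12261440 had c-Fos in all 6 lists and JunB, but no FosB in samples 3 and 4, while the FosB lists of samples 5 and 6 held it with control and with FosB shRNA. Its nearest H3K27ac peak was 123064 bp away, and no unstimulated list held it. Genes were not assigned to positions here.

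After KCl in samples 3 and 4, FosB was listed at fewer of the sites than c-Fos, from shorter lists with narrower peaks. In unstimulated neurons 11 sites (0.325%) in sample 3 and 89 (2.63%) in sample 4 lay in a FosB peak, against backgrounds of 0.321% and 3.19%. After KCl the counts were 496 (14.6%) and 362 (10.7%), against 14% and 10.2%. The mean went from 1.48% ± 1.63 to 12.7% ± 2.80 (SD, n = 2 each), without overlap. The exact permutation test gave p = 0.333, the smallest that 2 against 2 allow. With lists cut to equal length the difference of 11.19 points became 3.62 points, and with scores of at least 100 it was 4.86 points. Without sample 3 it was 8.06 points.

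The control shRNA cultures gave higher FosB shares, 1433 sites (42.3%) in sample 5 and 933 (27.5%) in sample 6, against backgrounds of 41.5% and 25%. FosB peaks over the sites were also wider in these libraries, with medians of 812 and 314 bp against 226 and 223 bp in samples 3 and 4. The whole lists differed alike, with median widths of 767 and 254 bp against 208 and 187 bp. They were also longer, with 22933 and 14139 peaks against 10898 and 4899. The part of list length and peak width in the higher shares was not tested. Over the 4 KCl FosB lists, 1605 sites (47.4%, background 46.1%) were in at least 1 and 184 (5.43%, background 5.33%) in all 4.

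JunB had 1 library in each condition, so its difference has no replicate check. It was listed at 188 sites (5.55%, 95% Wilson interval 4.83 to 6.37%) in unstimulated neurons and at 1407 sites (41.5%, 39.9 to 43.2%) after KCl. The backgrounds were 5.14% and 41%. The difference of 35.99 points was 17.98 points with scores of at least 100 and 5.26 points with lists of equal length. In the unstimulated state JunB held more of the sites than any c-Fos or FosB library did.

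Many of the bound sites were in lists of several family members. Within sample 4, 92.8% of the FosB sites were JunB sites (93.3% over all distal sites), and 60.8% of them were in the short sc52 list (60.9%). In samples 3, 5 and 6, 92.1%, 75.4% and 83.0% of the FosB sites were c-Fos sites with sc52, and over all distal sites 92.6%, 72.0% and 82.4% were. The sharing was thus close to that at distal sites in general. Taking either c-Fos antibody in sample 4, 303 sites (8.95%) had all 3 proteins, 672 (19.8%) had c-Fos and JunB without FosB, and 399 (11.8%) had JunB alone. A further 206 (6.08%) had c-Fos alone, 19 had FosB alone, and 1748 (51.6%) had none of the 3. The class with no H3K27ac had 8.85% with all 3, 19.1% with c-Fos and JunB without FosB, and 14.7% with JunB alone. It had 5.41% with c-Fos alone and 50.2% with none. The increasing class had 15.4%, 32.3%, 9.40%, 8.24% and 33.8% in the same order. These shares were not set out over all distal sites. Over all 11 KCl lists without shRNA against the factor profiled, 2199 sites (64.9%, background 64.2%) were in at least 1 and 151 (4.46%, background 4.27%) in all.

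Under c-Fos shRNA, directed at the protein being profiled, c-Fos was listed at far fewer of the sites in both samples, in a design too small to pass the threshold of 0.05. Under control shRNA, sc52 listed 1280 sites (37.8%) in sample 5 and 1199 (35.4%) in sample 6, against backgrounds of 35.6% and 33.3%. Under c-Fos shRNA the counts were 167 (4.93%) and 12 (0.354%), against 6.57% and 0.414%. The mean was lower by 33.95 points (36.6% ± 1.69 against 2.64% ± 3.24, SD, n = 2 each), and the groups did not overlap. The exact permutation p was 0.333, the smallest the design can give. Lists of equal length gave a difference of -4.24 points, and scores of at least 100 gave -20.5 points.

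Sample 5 kept 152 of its 1280 control c-Fos sites (11.9%, Wilson interval 10.2 to 13.8%) and sample 6 kept 11 of 1199 (0.917%, 0.513 to 1.64%). The shares kept in the class with no H3K27ac were 9.60% and 1.15%, and in the increasing class 18.6% and 0.515%. Those among the unclassified sites in H3K27ac peaks of both conditions were 21.9% and 2.02%. Shares kept over all distal sites were not set out. The whole sc52 lists fell from 23578 to 7808 peaks in sample 5 and from 19131 to 1793 in sample 6. Both c-Fos shRNA lists held 8 of the 3387 sites (0.236%, background 0.287%). The best ranked of these were chr5:116886390, chr9:96328955 and chr9:68195405. At the first, the authors' score in sample 6 was 350.2 with control shRNA and 68.7 with c-Fos shRNA. In sample 5 it was 817.1 and 851.7, the second over a peak of 4525 bp against 1187 bp in the control. These lists differ in length, so their scores are not on one scale and no change is read from them.

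Under FosB shRNA, FosB was listed at fewer sites in both samples, again with 2 libraries against 2. FosB was listed at 669 sites (19.8%) in sample 5 and 458 (13.5%) in sample 6 under FosB shRNA, against backgrounds of 20.5% and 13.8%. The mean was lower than the control by 18.3 points (34.9% ± 10.4 against 16.6% ± 4.41, SD, n = 2 each; exact permutation p = 0.333, the smallest possible). Sample 5 kept 577 of 1433 control sites (40.3%) and sample 6 kept 333 of 933 (35.7%). In the class with no H3K27ac the shares kept were 36.9% and 43.2%, and in the increasing class 42.2% and 39.5%. Among the unclassified sites in H3K27ac peaks of both conditions they were 46.2% and 42.9%. The whole FosB lists fell from 22933 to 9941 peaks in sample 5 and from 14139 to 7180 in sample 6. The width of FosB peaks over the sites moved with the treatment, from a median of 812 to 288 bp in sample 5 and from 314 to 264.5 bp in sample 6. The median of the whole FosB list moved alike, from 767 to 221 bp and from 254 to 234 bp, so this was not confined to the sites. With the peak centre within 200 bp of the site in place of any overlap, the difference was -15.8 points. With lists of equal length it was -4.92 points, and with scores of at least 100 it was -11.6 points.

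The closest class by construction is the 1886 sites with no H3K27ac, all of which also lay outside every H3K27ac peak. Whether c-Fos data had a part in assigning the classes is not known here, and if they did, the comparisons with a class below would not be independent of that choice. After KCl their c-Fos shares could hardly be separated from those of the unclassified sites. The 6 KCl c-Fos libraries gave within-library differences from -1.61 to 1.83 points, with the unclassified sites higher in 4 of 6. The mean difference was 0.534 ± 1.37 points (SD, n = 6; exact sign-flip permutation p = 0.344, Benjamini-Hochberg adjusted over 3 class comparisons 0.344). With scores of at least 100 the unclassified sites were higher by 2.47 points (19.3% against 16.8%) and with lists of equal length by 2.42 points, each with an exact permutation p of 0.0312, not adjusted. With the mean of each of the 4 biological samples as the unit, these were 2.36 and 2.37 points with an exact permutation p of 0.125, the smallest for 4. With sc52 alone, with peak centres, or with isolated sites the sign turned, to -0.106, -0.112 and -0.825 points.

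The ranks of the peaks leaned the same way without passing the test. The median peak that held a site stood at the 63.1st percentile of scores in its list, averaged over the 6 libraries, against the 57.9th for the class with no H3K27ac. The difference was 5.19 ± 4.24 percentile points (SD, n = 6), higher in 5 of 6 libraries, and it did not pass the threshold of 0.05 (exact sign-flip permutation p = 0.0625). The exception was sc52 in sample 4, at -1.73. With scores of at least 100 the rank difference was 1.63 points, and with lists of equal length 2.41 points. Over all distal sites the median percentiles with sc52 were 63.99, 51.92, 64.42 and 62.6 in samples 3 to 6. With sc7202 they were 69.83 and 65.03 in samples 3 and 4. The unclassified sites lay above these values in some libraries and below them in others, so their ranks are not read as high. The class with no H3K27ac lay below these values in every library. FosB shares differed from that class by 0.520 ± 0.626 points over 4 KCl libraries, higher in 4 of 4 (exact sign-flip permutation p = 0.125, the smallest for 4), and by -0.402 points at sites with no other distal site within 5 kb. JunB after KCl was listed at 41.5% of the unclassified sites and 43.8% of that class, in 1 library.

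Sites with increasing H3K27ac held c-Fos far more often. The 1468 sites of that class had c-Fos shares from 27.7% to 68.9%, with a mean of 52.1%. The unclassified sites were lower in 6 of 6 libraries, by 13.4 to 21.3 points (mean difference -17.5 ± 2.69 points, SD, n = 6; exact sign-flip permutation p = 0.0312, adjusted 0.0469). The 2774 unclassified sites in H3K27ac peaks of both conditions had lower c-Fos shares than those outside peaks. The sites outside peaks were higher in 6 of 6 libraries, by 2.71 to 8.65 points (mean 5.78 ± 2.04 points, SD, n = 6; exact permutation p = 0.0312, adjusted 0.0469). With scores of at least 100 and with lists of equal length this difference was 3.40 and 2.93 points. The 6 libraries come from 4 biological samples. With the mean of each sample as the unit, the differences were -17.3 and 6.27 points with an exact permutation p of 0.125, the smallest for 4 samples.

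**Figure D3:**
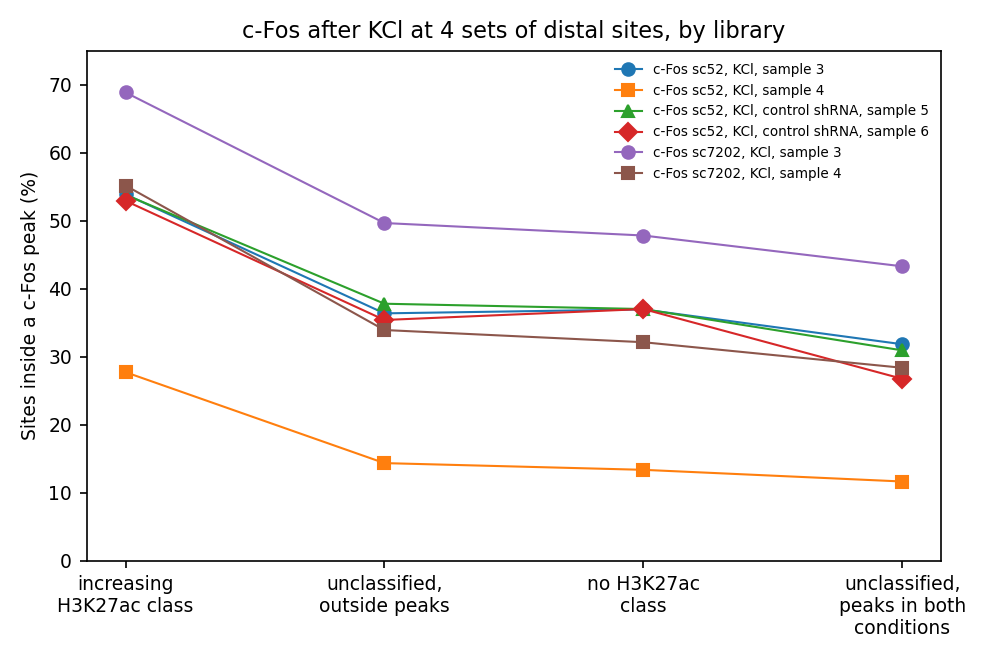
Percent of sites inside a c-Fos peak after KCl (vertical axis) in 4 sets of distal sites (horizontal axis), 1 line for each of 6 libraries without c-Fos shRNA. In every library the unclassified sites outside H3K27ac peaks lie 13.4 to 21.3 points below the increasing class and 2.71 to 8.65 points above the unclassified sites with H3K27ac peaks in both conditions.

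The study's combined c-Fos list, which gives single positions, placed a c-Fos site within 500 bp of 987 of the unclassified sites outside H3K27ac peaks (29.1%, Wilson interval 27.6 to 30.7%, background 26.3%). The median distance among these was 47 bp. The same share was 30.1% in the class with no H3K27ac, 42.3% in the increasing class and 20.2% among the unclassified sites in H3K27ac peaks of both conditions. The order is that of the mean shares over the separate KCl libraries, except between the 2 sets outside H3K27ac peaks. The labels do not say how the combined list was made, so it may not be independent of those libraries.

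In silenced neurons, a small group of the sites was already in an AP-1 list. At least 1 of the 7 unstimulated lists held 239 sites (7.06%, background 7.31%), and at least 2 held 97 (2.86%, background 2.81%). The class with no H3K27ac had 12.7% and 6.04% by the same counts, and the increasing class 2.79% and 0.886%. In 7 of 7 unstimulated lists the share in the class with no H3K27ac was above that in the unclassified sites, by 1.94 to 4.19 times. JunB, for example, was listed at 11.03% of that class (9.69 to 12.5%) and at 5.55% of the unclassified sites. The highest ratio was that of sc7202 in sample 3, on 14 sites of that class and 6 unclassified sites. With sc7202 in sample 4 there were 2 and 1, so the sc7202 ratios rest on very few sites. All 7 lists come from biological samples 3 and 4. The contrast between the 2 sets was noticed after the values were seen and is given without a test.

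**Figure D4:**
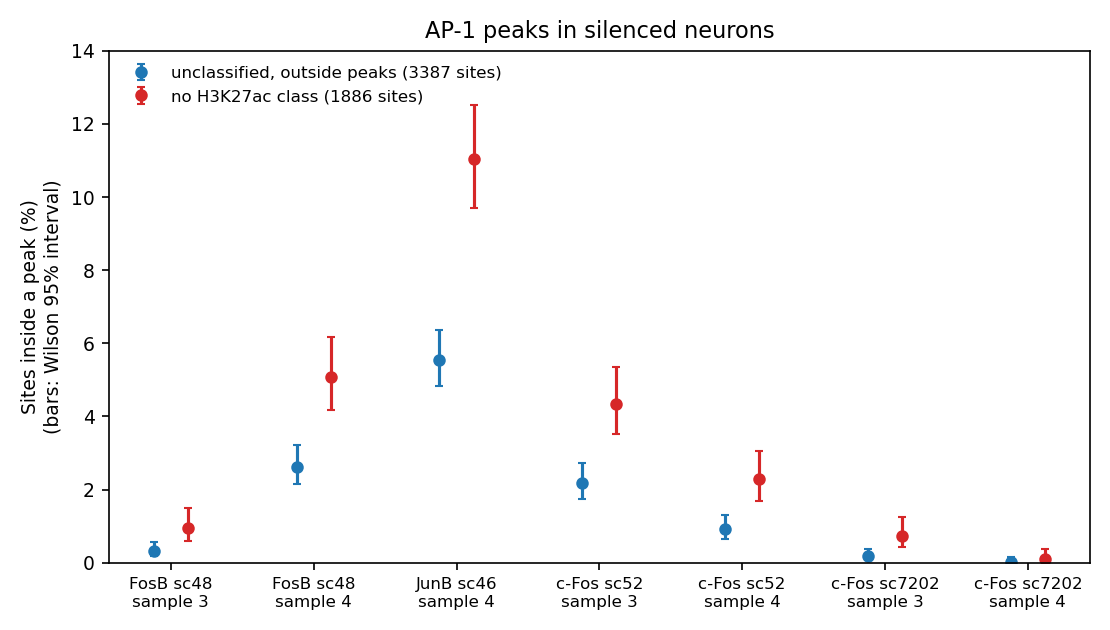
Percent of sites inside a peak in each of the 7 unstimulated libraries (vertical axis), with 95% Wilson intervals, for the 3387 unclassified sites outside H3K27ac peaks and the 1886 sites of the class with no H3K27ac. The second set is the higher in each library, with JunB at 11.03% against 5.55%.

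Sites listed before stimulation were often listed after it, here as at distal sites in general. Of the 188 unstimulated JunB sites, 142 (75.5%) were also in the KCl JunB list, against 39.5% of the other sites. Over all distal sites these shares were 77.5% and 39.04%. For sc52 the figures were 50 of 74 sites (67.6%, against 35.7% of the others) in sample 3 and 13 of 31 (41.9%, against 14.1%) in sample 4. Over all distal sites they were 68.02% against 34.97%, and 43.6% against 14.1%. FosB in sample 4 gave 43 of 89 (48.3%, against 9.67%), and 41.9% against 9.19% over all distal sites. FosB in sample 3 gave 2 of 11, and sc7202 gave 3 of 6 and 0 of 1, which are too few to read. JunB and FosB of sample 4 overlapped before stimulation, with 62 sites in both lists, or 32.98% of the 188 JunB sites and 69.7% of the 89 FosB sites.

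As 1 group, the 239 sites had a KCl c-Fos share of 39.4% ± 8.22 (SD over 6 libraries) and the remaining 3148 had 34.2% ± 11.7. Both shares come from the same 6 libraries, so these SDs do not measure the spread of the difference. The lowest library values were 27.6% and 13.3%, and the highest 52.3% and 49.5%. No test of this difference was run. KCl JunB was listed at 69.0% of the 239 and 39.5% of the rest. A combined c-Fos site within 500 bp went the other way, at 18.8% of the 239 and 29.9% of the rest. Of the 239 sites, 188 were in the unstimulated JunB list, so the JunB split in large part repeats the JunB shares given above. These splits were not set out over all distal sites, so they are not read as particular to the sites.

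The sites in the most unstimulated lists differed in how many KCl lists held them. The site at chr12:108524050 was in 6 of 7 unstimulated lists, in 2 of 6 KCl c-Fos lists and in no KCl FosB list without FosB shRNA. The authors' score of its sc52 peak in sample 3 was 137.6 unstimulated and 52.5 after KCl, and that of its JunB peak was 197.7 and 101.9. Scores of lists of different length are not on one scale, so no change is read from them. By contrast, chr9:96328955 was in 5 unstimulated lists and in every KCl list, both c-Fos shRNA lists included. Its sc52 peak in sample 3 scored 375.0 before and 434.4 after KCl, and its unstimulated JunB peak ranked at the 99.1st percentile. The combined c-Fos list nonetheless had no position within 293401 bp of it. The third, chr2:169250185, was in 5 unstimulated lists and in all 11 KCl lists, with an unstimulated JunB peak at the 99.3rd percentile.

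The sites lay at widely varying distances from acetylated regions. The rule used H3K27ac peaks, so distances to them are descriptions. The median distance to an H3K27ac peak of either condition was 14096 bp, with quartiles of 4906.5 and 35411.5 bp and a range from 6 to 715807 bp. In the class with no H3K27ac the median was 21733.5 bp. Under 1 kb lay 234 of the unclassified sites (6.91%), against 2.07% of that class. The 27 sites within 100 bp of a peak faced 35 unclassified sites that were within 100 bp of the edge inside one. The nearest outside were chr15:55266375 at 6 bp, chr17:50791195 at 14 bp and chr9:29025675 at 18 bp. The last of these was in 5 of 6 KCl c-Fos lists. The nearest inside were chr1:169007085 at 8 bp, chr8:34545885 at 10 bp and chr6:99784735 at 12 bp.

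The mean c-Fos share after KCl lay between 33.7% and 35.8% at every distance to acetylation. The mean share over the 6 libraries was 35.8% ± 12.4 (SD) for the 234 sites under 1 kb, 34.99% ± 12.6 for 623 sites from 1 to 5 kb and 34.97% ± 11.2 for 1158 sites from 5 to 20 kb. It was 33.7% ± 10.9 for 1151 sites from 20 to 100 kb and 34.6% ± 11.3 for the 221 sites at 100 kb or more. Within libraries, the share from 20 to 100 kb was below that under 1 kb in 5 of 6, with differences from -5.06 to 0.747 points. At 100 kb or more it was below in 4 of 6, with differences from -4.20 to 3.97 points. No test of these differences was run. Unstimulated JunB went from 3.85% under 1 kb to 10.4% at 100 kb or more, through 4.17%, 5.18% and 6.08%, in a single library. In the class with no H3K27ac it was 7.69%, 9.82%, 8.93%, 12.2% and 14.5% over the same bins, so a rise was not particular to these sites.

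**Figure D5:**
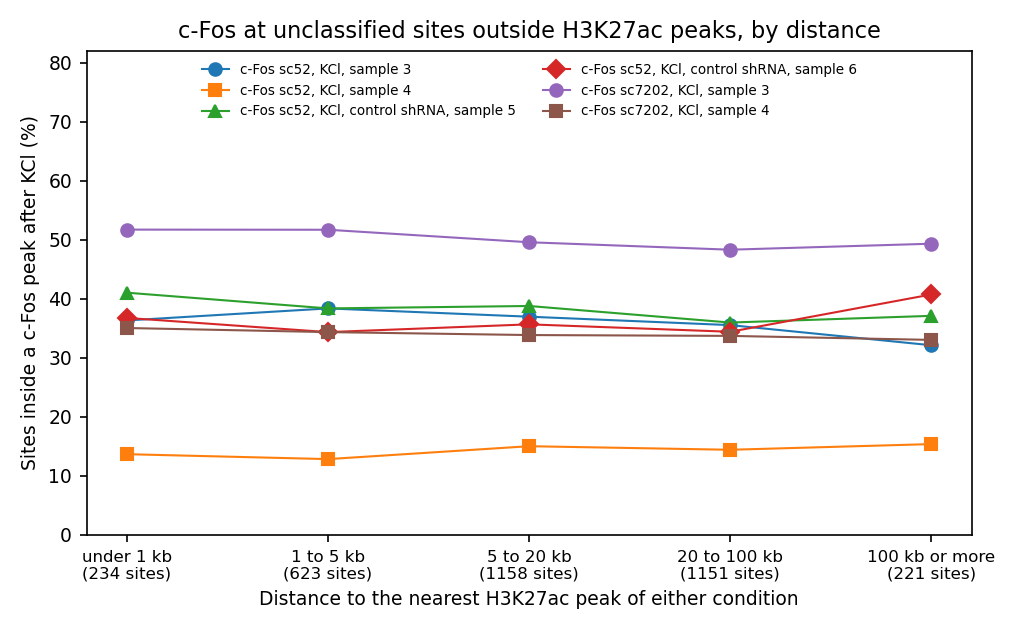
Percent of the unclassified sites outside H3K27ac peaks that lay inside a c-Fos peak after KCl (vertical axis), by distance to the nearest H3K27ac peak (horizontal axis), 1 line for each of 6 libraries. The library means per bin stay between 33.7% and 35.8%.

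The shares were also set out by the condition in which the nearest H3K27ac peak was listed. Among sites under 5 kb from an H3K27ac peak, 185 had a nearest peak listed after KCl only, 158 one listed in silenced neurons only, and 514 one that both lists covered. Their c-Fos shares were 41.3% ± 13.01, 32.2% ± 11.1 and 33.9% ± 12.9 (SD over 6 libraries). The first group was the highest in 6 of 6 libraries. At any distance the means were 37.4% for 656 sites, 31.98% for 676 and 34.5% for 2055, with the first again the highest in 6 of 6. Under 1 kb the first group was not clearly above the last. There the first and the last group had 38.14% and 38.06%, on 59 and 134 sites, and the first was the highest in 3 of 6 libraries. The middle group was the lowest in each library there, with a mean of 24.8% ± 11.1 on 41 sites. The comparison was made after other values had been seen, and no test of it was run.

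At the 3 sites farthest from acetylation few lists had a peak, although the 221 sites at 100 kb or more had a KCl JunB share of 48.9%, above the 39.3% to 45.3% of the nearer bins. At chr13:72538300, 715807 bp from any H3K27ac peak, 1 KCl c-Fos list, 1 FosB list and the JunB list had a peak. At chr3:48390395, 694912 bp away, no AP-1 list had one, and at chr4:30195515, 663343 bp away, 1 KCl c-Fos list and the FosB shRNA list of sample 5 did.

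Few of the sites formed groups. The next distal site of any kind was a median of 30075 bp away, and 616 sites (18.2%) had one within 5 kb, against 23.8% of all distal sites and 31.7% of the increasing class. For 292 of the 616 (47.4%) that neighbour was another unclassified site outside H3K27ac peaks. With gaps of at most 5 kb, 3086 sites stood alone, 137 pairs formed and 9 runs had 3 sites. The longest-spanning run but one, chr10:18195290-18200795, showed how neighbours differ. Its sites at 18198275 and 18200795 were in all 6 KCl c-Fos lists, all 4 FosB lists and the JunB list, and the one at 18195290 was in 1 c-Fos list. In the run chr13:101983730-101987350 no site was in any KCl c-Fos, FosB or JunB list. Between chromosomes, the part of distal sites that were unclassified and outside H3K27ac peaks ran from 22.8% on chromosome 4 to 32.4% on X, where it rests on 12 of 37 sites.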

How the data were processed

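Chromatin immunoprecipitation and sequencing was done on cultured mouse cortical neurons (38 samples, 12 of them input). Reads were aligned with BWA to mm9, per the submitters' processing notes. The authors deposited peak lists with a score for each peak (50 at the lowest in the 22 AP-1 lists), lists of single positions and 2 merged H3K27ac lists; the labels name neither the peak caller nor the depth. The members and lists were chosen with earlier results of these data known.

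A site counted as bound in a library when its position lay between a peak's start and end. Shares were compared over libraries with exact permutation tests, written in Python 3.11.15 with numpy 2.4.6, checked on planted peaks. Within-library differences used sign flips, with Benjamini-Hochberg adjustment over the 3 class comparisons with c-Fos. Scores entered the comparisons only to rank or filter peaks within a list, with ranks given as percentiles. Raw scores quoted at named positions are not on one scale between lists. Equal-length lists hold the best-scoring peaks of each list, as many as the shortest list of the comparison has. Samples were grouped by their titles. Libraries of the same numbered biological sample share it per the labels, so the numbers pair them; shares were higher in sample 3 than 4 in 5 of 6 groups and in 5 than 6 in 4 of 4.

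Named positions are the 5 sites in the most KCl c-Fos lists (373 tied in all 6, taken by the mean score rank of their peaks), the 3 in the most unstimulated lists, the 3 best ranked in both c-Fos shRNA lists, the 3 on either side of and the 3 farthest from H3K27ac edges, and the longest runs; chromosome 18 was passed over. With 9 runs tied at 3 sites, those shown were chosen after their values were seen. No sequence or gene was read, as no genome of build mm9 was used here.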

Additional observations from a re-analysis of the deposited data

How the results depend on the processing

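Of 138 recomputed values, 37 come from a test that can pass the threshold of 0.05, and 33 of these kept their direction and their side of it, 2 passed it newly and 2 changed sign; the others cannot show stability. Differences are in percentage points, and the p-values are from exact permutation tests. For c-Fos after KCl minus unstimulated (32.75, p = 0.0286), exact permutation with the replicate block gave 32.75 (p = 0.125), sample means with the block, chosen after seeing the data, 32.75 (p = 0.5), sc52 alone 23.8 and sc7202 alone 41.7 (p = 0.333 each), and leaving out a biological sample 23.7 to 41.8 (p = 0.333). With 2 libraries against 2, FosB and the shRNA comparisons allow no call with or without the block (smallest p of 0.5 and 0.333). For JunB (35.99), scores of at least 100 gave 17.98, peak centres within 200 bp 33.7 and lists of equal length 5.26. Leaving out a sample gave 8.06 to 14.3 for FosB after KCl, -35.0 to -32.9 for c-Fos shRNA and -22.6 to -14.0 for FosB shRNA.

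Against the class with no H3K27ac, the c-Fos difference of 0.534 became 2.47 with scores of at least 100 and 2.42 with equal lengths (exact p = 0.0312 each), -0.112 with peak centres, -0.825 at sites with no other distal site within 5 kb and -0.106 with sc52 alone; the FosB difference of 0.520 became -0.402 at isolated sites. The score rank difference of 5.19 became 1.63 with scores of at least 100 and 2.41 with equal lengths (exact permutation p = 0.5 and 0.0938). Leaving out a sample gave 0.106 to 0.963 for c-Fos, 0.213 to 0.666 for FosB and 4.52 to 5.74 for the score rank. With both sets at least 5 kb from H3K27ac, an alternative chosen after seeing the data, these were 0.447, 0.964 and 5.90. Against the increasing class, the replicate block over sample means gave -17.3 and sc52 alone -16.1 (exact p = 0.125 each), and leaving out a sample -17.8 to -17.0 (p = 0.0625 to 0.125). Against the unclassified sites in H3K27ac peaks of both conditions these were 6.27, 5.69 and 5.21 to 6.61, with the same p-values. Fewer libraries raise the smallest p these tests can give. The share near a combined c-Fos site was 26.8% at 200 bp in place of 29.1% at 500 bp. The lists hold no reads, so what depth limits could not be measured.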
